A study of Chlorocebus sabaeus with 6 samples.

Results

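The genes described here are a list of 38 that serve DNA replication and mitosis, from the MCM helicase that opens replication origins to the kinases, motors and cyclins of cell division. They were chosen by name, with earlier results of these data known. The list itself pairs each symbol with a human Ensembl protein accession, the identifier used in the deposited table. Of the 38, 32 had a row among the 51520 features of the table, and 31 of those reached a mean of 1 FPKM and were tested. The table held no row under the listed accessions of MCM3, PCNA, CCNE2, AURKA, AURKB and CDC20, which were not analysed here.

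The data are poly-A RNA sequencing of 6 libraries from COS-1, a monkey (Chlorocebus sabaeus) kidney fibroblast line transformed with SV40 sequences. Control cells with no treatment gave 3 libraries and lentivirus-treated cells gave 3, and both groups had been deprived of serum for 14 h and then given 2 ng/ml epidermal growth factor (EGF) for 90 min. No unstimulated group is part of the comparison, and no group given a control virus. An effect of the virus itself and an effect of what it carried therefore cannot be told apart. The series title names SHOC2, a scaffold of the RAS to ERK cascade, but what the virus carried is not in the labels. Nor do they say that replicates were separate cultures, and the p-values below then reflect only library-to-library spread, which may be technical. Identity markers of the line were not checked, because only the listed genes could be paired with symbols.

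A dividing cell copies its DNA in S phase and separates the copies in mitosis, and the 2 programmes are transcribed in waves. E2F factors, held back by the retinoblastoma protein, switch on the replication genes, and a later wave raises the mitotic genes. D-type cyclins act upstream by directing kinases to the retinoblastoma protein, and their transcription responds to growth factors through ERK in many cell types. In SV40-transformed cells the viral large T antigen binds the retinoblastoma protein directly.

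In lentivirus-treated cells CCND1, the gene of cyclin D1, fell by 59.0% of its control level, and no other member changed by as much as 0.5 log2. By limma with Benjamini-Hochberg adjustment over all 28434 tested features, 3 members fell (CCND1, CCNB2 and BUB1B) and 1 rose (TTK). These 4 of 31 tested members (12.9%) stand beside 6.48% of all tested features called, 2.89% higher and 3.59% lower, and beside 13.2% of the 7184 features with an ENSP accession that averaged 10 FPKM or more, the range in which all 31 lay (12.1 to 174 FPKM). The other 27 did not pass the test, and 16 of them had control and lentivirus libraries that did not overlap. Counting the called genes, 20 of 31 (64.5%) did not overlap, 13 higher (41.9%) and 7 lower (22.6%). Over all tested features 31.6% did not overlap, 15.1% higher and 16.5% lower, and over the ENSP features at 10 FPKM or more 47.8% did not, 23.6% higher and 24.3% lower.

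The median log2 change of the 31 members was 0.084, where that of all tested features was -0.00097. Without lentivirus replicate 3 the median of the members was 0.042. The median absolute change was 0.11 log2, against 0.16 for all tested features and 0.13 for the ENSP features at 10 FPKM or more. The direction was mixed within most roles, as the plot of each gene by library shows.

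**Figure D1:**
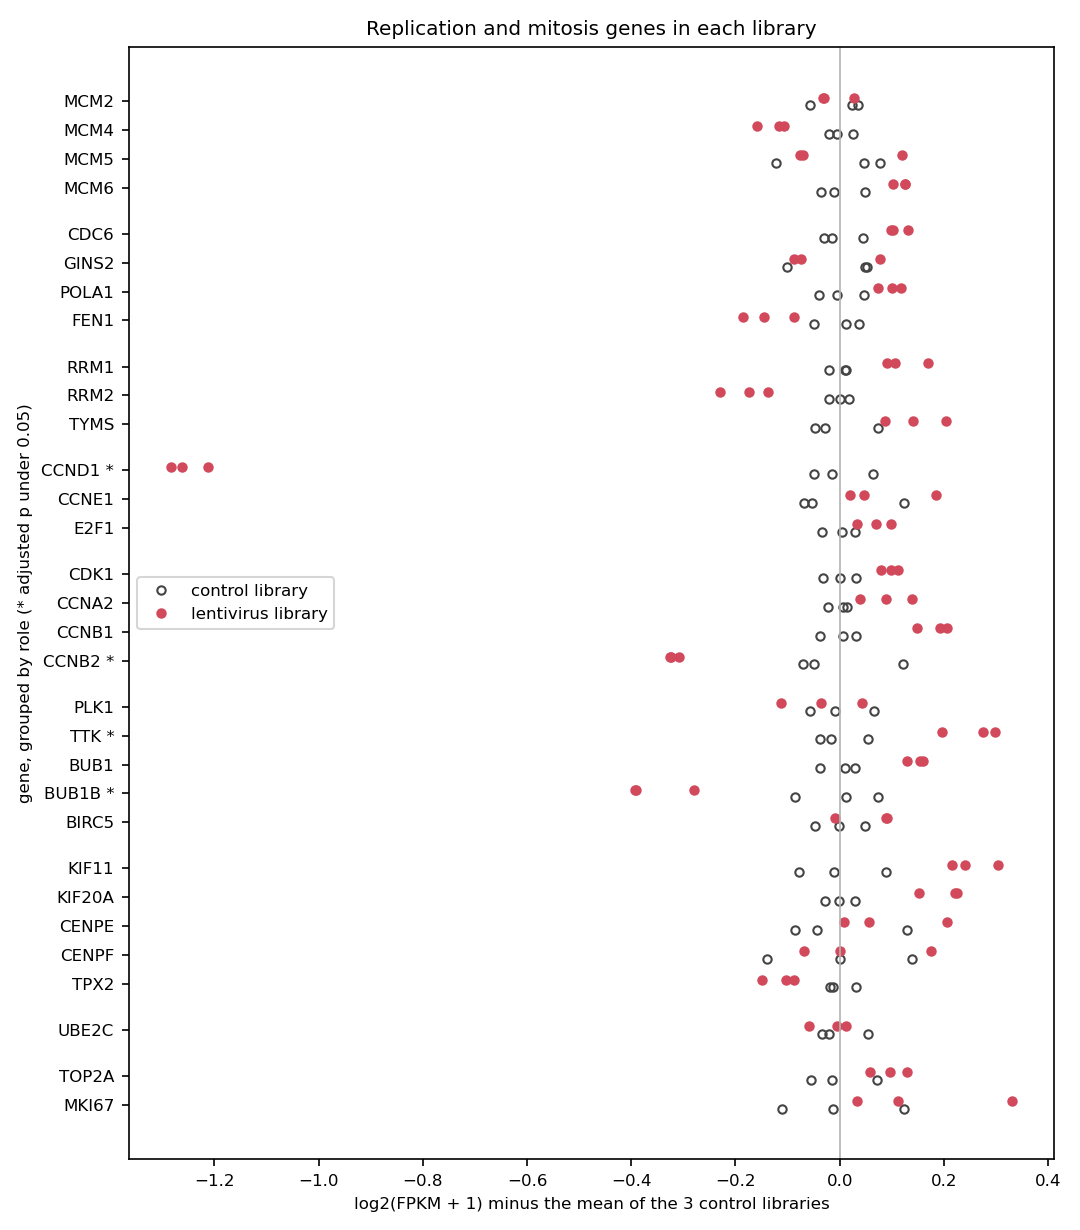
Each row is 1 tested gene, in blocks by role, and each point 1 library as log2(FPKM + 1) minus the mean of the 3 control libraries (open grey, control; red, lentivirus). CCND1 stands alone at about -1.25, CCNB2 and BUB1B lie between -0.4 and -0.2, and the remaining genes lie within about 0.35 of their control mean.

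FPKM (fragments per kilobase of the feature, relative to the fragments of the library) keeps no read counts, so the depth behind each value is unknown. Overlapping features share reads, and 16 of the 32 rows overlapped another feature; the sum over all features of an overlapping cluster, called a locus below, was fitted as a second measure. All log2 changes are lentivirus minus control on the log2(FPKM + 1) scale, which slightly understates a fold change. With 3 libraries a group, the smallest p that an exact two-sided permutation test allows is 0.10.

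Positions are those of the deposited table, whose build is not given in the sources used here, with starts counted from 1. For 30 of the 32 rows the chromosome was the one that RefSeq lists for the symbol in assembly mChlSab1.0.hap1. The rows of CDK1 and UBE2C lay on another chromosome than RefSeq gives, at chromosome 23, 40070407 to 40071297, and chromosome 8, 30326109 to 30326645, and spanned only 891 and 537 positions. Their values are given as those of rows carrying these accessions; which gene their reads came from was not tested.

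Cyclin D1 carries growth factor signals to the G1 kinases. The CCND1 row (ENSP00000227507_1, chromosome 1, 4912237 to 4922119) stood at 64.2, 60.7 and 59.2 FPKM in control replicates 1 to 3 and at 25.9, 25.0 and 24.6 FPKM in lentivirus replicates 1 to 3. All 3 lentivirus libraries lay far below the lowest control library, and the spread within each group was small against the gap. The means were 61.3 ± 2.55 and 25.2 ± 0.666 FPKM (SD, n = 3), 2.44-fold lower, with a log2 change of -1.25 (SE 0.049, 95% interval -1.37 to -1.13, limma adjusted p = 0.00274). By p-value it ranked 7 of 28434 features, and 31 of the 7184 ENSP features at 10 FPKM or more had a lower change. The call was kept without any 1 library (limma adjusted p 0.0194 to 0.0274). No other feature overlapped the row, and the 20 nearest tested loci had a median change of -0.15 log2.

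The other G1 and S phase regulators did not pass the test. E2F1, the transcription factor that drives replication genes, gave 46.7, 45.5 and 47.5 FPKM in control and 47.7, 50.0 and 48.9 FPKM in lentivirus libraries. Its groups did not overlap, but by a margin of under 1 FPKM, and the log2 change was 0.068 (SE 0.040, limma adjusted p = 0.376). CCNE1, which encodes cyclin E1, the partner of CDK2 at S phase entry, ranged from 23.3 to 26.8 FPKM in control and from 24.9 to 28.0 FPKM in lentivirus libraries, so its groups overlapped. The 95% interval of its change was -0.11 to 0.28 log2. CCND1 alone passed among the 3 tested genes of this role.

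**Figure D2:**
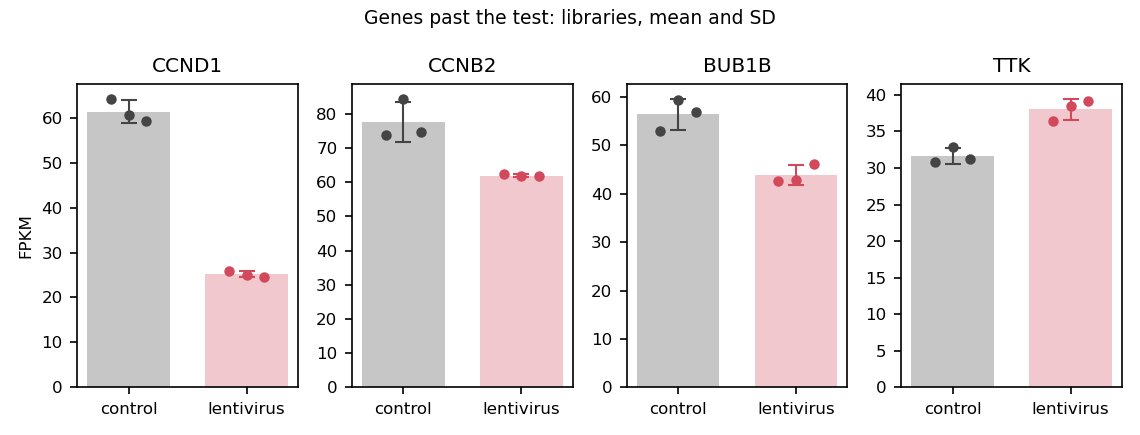
FPKM of the 4 genes past the test, with points for libraries (grey, control; red, lentivirus), bars for group means from 0 and error bars for the SD (n = 3). CCND1 falls from 61.3 to 25.2 FPKM, whereas CCNB2, BUB1B and TTK differ between groups 1.25-, 1.29- and 1.20-fold.

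The MCM2 to MCM7 proteins form the ring-shaped helicase that is loaded at origins in G1 and unwinds DNA in S phase. None of the 4 tested subunits passed the test, and the median change of the 4 was -0.011 log2. MCM4 (ENSP00000262105_1, chromosome 8, 44120530 to 44136475) was lower, with 181, 179 and 185 FPKM in control against 169, 168 and 163 FPKM in lentivirus libraries, and the groups did not overlap. Its log2 change was -0.13 (SE 0.034, limma adjusted p = 0.0938). MCM6 (ENSP00000264156_1, chromosome 10, 20054117 to 20089482) lay the other way, at 98.3, 102.5 and 96.7 FPKM in control against 108.3, 108.2 and 106.5 FPKM in lentivirus libraries, again without overlap (log2 change 0.12, SE 0.038, limma adjusted p = 0.136). The features of their chromosomes had median changes of -0.073 and 0.088 log2. A related quantity, the chromosome median of deviations from each feature's mean, was then subtracted in each library. After that MCM4 was at -0.046 log2 (limma adjusted p = 0.488) and MCM6 at 0.042 log2 (limma adjusted p = 0.579). The 20 nearest tested loci had a median of -0.097 log2 for MCM4 (13 lower). For MCM6 it was -0.068 log2 (14 lower), opposite in sign to its chromosome. Summed over its locus, MCM4 had groups that overlapped (-0.14 log2, limma adjusted p = 0.154). Those of MCM6 still did not overlap when summed (0.15 log2, limma adjusted p = 0.0612).

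The rows of MCM2 and MCM5 showed no such separation. MCM2 gave 154, 144 and 153 FPKM in control and 153, 147 and 147 FPKM in lentivirus libraries, with a 95% interval of the change from -0.12 to 0.094 log2. MCM5 gave 80.2, 71.3 and 82.0 FPKM in control and 84.4, 73.9 and 73.6 FPKM in lentivirus libraries, with an interval from -0.22 to 0.20 log2. In both genes control replicate 2 was the lowest of the 6 libraries, and both intervals include 0. The 2 features that overlap the MCM5 row differed in direction. JK092094.1 was higher, with groups that did not overlap (0.33 log2, limma adjusted p = 0.199), and JK102988.1 was lower, with groups that overlapped (-0.15 log2, limma adjusted p = 0.383).

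MCM7 could not be read from its own row. The row (ENSP00000307288_1, chromosome 28, 12977133 to 12985199) stood under 0.001 FPKM in all 6 libraries, while 6 other features, all named by JK accessions, lay along its span with means between 78.4 and 269 FPKM. All 6 had a higher mean in lentivirus libraries, by 0.14 to 0.20 log2. In 3 of the 6 the groups did not overlap, beside 31.6% of all tested features (15.1% higher in lentivirus). JK107694.1, at the start of the span, passed the test: it gave 235, 229 and 240 FPKM in control and 276, 269 and 263 FPKM in lentivirus libraries (log2 change 0.20, SE 0.038, limma adjusted p = 0.0450). The 7 features overlap and share reads, so they are not independent. Their sum was 915, 878 and 936 FPKM in control and 1061, 1003 and 1003 FPKM in lentivirus libraries, 1.12-fold higher (log2 change 0.17, SE 0.042, limma adjusted p = 0.0379 over 16073 loci). Strand is not given, so reads of a gene on the other strand cannot be told apart.

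**Figure D3:**
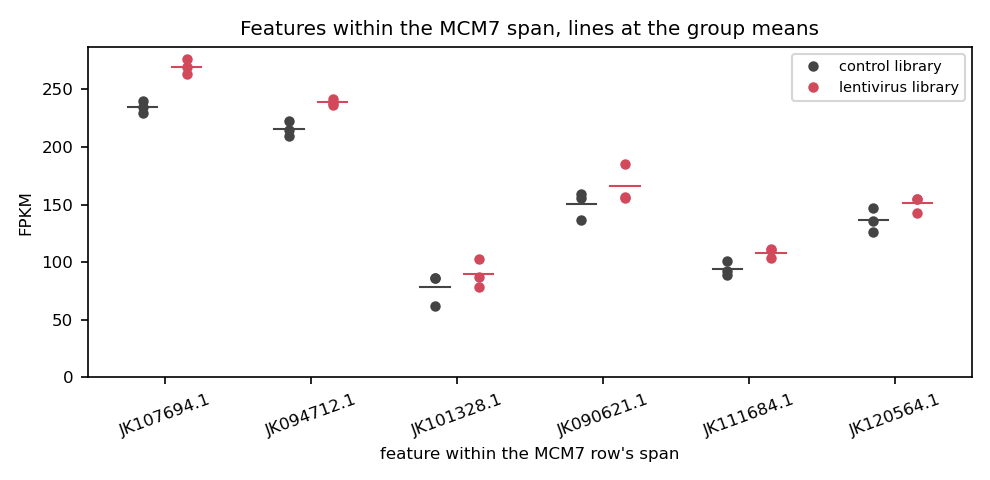
FPKM of the 6 features that lie along the MCM7 row, with points for libraries (grey, control; red, lentivirus) and short lines at the group means. Each mean is higher in lentivirus libraries, and the groups separate in JK107694.1, JK094712.1 and JK111684.1.

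The 4 tested genes of origin licensing and the replication fork did not pass the test. CDC6, which loads the MCM ring, was at 116, 122 and 117 FPKM in control and 127, 127 and 129 FPKM in lentivirus libraries (log2 change 0.11, SE 0.037, limma adjusted p = 0.147). POLA1, the catalytic subunit of the polymerase that primes DNA synthesis, was at 25.5, 26.5 and 24.9 FPKM in control and 27.9, 27.0 and 27.6 FPKM in lentivirus libraries (log2 change 0.097, SE 0.044, limma adjusted p = 0.255). Both had every lentivirus library above every control library. FEN1, the nuclease that trims flaps from Okazaki fragments, lay in the opposite order, at 76.2, 79.6 and 81.0 FPKM in control and 74.2, 71.2 and 69.3 FPKM in lentivirus libraries (log2 change -0.14, SE 0.046, limma adjusted p = 0.141). Summed over its locus, FEN1 had groups that overlapped (-0.12 log2, limma adjusted p = 0.242). GINS2 is a subunit of the complex that activates the helicase. It ranged from 141 to 157 FPKM in control and from 142 to 160 FPKM in lentivirus libraries. Its groups overlapped throughout (interval -0.20 to 0.15 log2).

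Nucleotide supply also held differences of both signs. RRM1 and RRM2 encode the large and small subunits of ribonucleotide reductase, which makes deoxyribonucleotides. RRM1 (ENSP00000300738_1, chromosome 1, 62606615 to 62649663) was at 134, 131 and 134 FPKM in control and 150, 142 and 143 FPKM in lentivirus libraries, without overlap (log2 change 0.12, SE 0.038, limma adjusted p = 0.123). RRM2 (ENSP00000353770_1, chromosome 14, 97512835 to 97519669) was at 111, 110.0 and 108 FPKM in control and 93.6, 99.8 and 97.3 FPKM in lentivirus libraries, also without overlap (log2 change -0.18, SE 0.039, limma adjusted p = 0.0590). RRM1 was 1.09-fold higher and RRM2 1.13-fold lower, and neither single row passed. With the chromosome median subtracted RRM2 was at -0.063 log2 (limma adjusted p = 0.416) and RRM1 at 0.15 log2 (limma adjusted p = 0.0822). Summed over overlapping features both passed, RRM1 at 0.17 log2 (limma adjusted p = 0.0261) and RRM2 at -0.21 log2 (limma adjusted p = 0.0263). TYMS, thymidylate synthase, was at 147, 135 and 137 FPKM in control and 161, 154 and 149 FPKM in lentivirus libraries. The groups were separated by less than 2 FPKM (log2 change 0.14, limma adjusted p = 0.177). Summed over the locus of TYMS, they overlapped (0.13 log2, limma adjusted p = 0.213).

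Cyclins B1 and B2 both activate CDK1 for entry into mitosis. CCNB2 (ENSP00000288207_1, chromosome 26, 24389825 to 24408797) fell from 73.8, 84.4 and 74.8 FPKM in control to 62.5, 61.7 and 61.7 FPKM in lentivirus libraries. The 3 lentivirus libraries were almost equal, all below the lowest control library, and control replicate 2 was the highest. The means were 77.7 ± 5.83 and 62.0 ± 0.427 FPKM (SD, n = 3), 1.25-fold lower, with a log2 change of -0.32 (SE 0.061, limma adjusted p = 0.0459). Of 4 features that overlap this row, JK092638.1 was nearly level (0.013 log2, limma adjusted p = 0.944). JK104587.1 was lower, with groups that did not overlap, but was not called (-0.35 log2, limma adjusted p = 0.0678). The rest were too low to be tested. CCNB1 (ENSP00000256442_1, chromosome 4, 65266046 to 65276338) lay in the other direction, at 149, 156 and 153 FPKM in control against 176, 175 and 169 FPKM in lentivirus libraries, 1.14-fold higher. Its log2 change of 0.18 (SE 0.038, 95% interval 0.088 to 0.28) fell just short of the threshold (limma adjusted p = 0.0528) and passed it in the fit over loci, where its value is the same but other rows are tested (limma adjusted p = 0.0225).

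CCNA2, cyclin A2, which acts in S phase and early mitosis, was at 106, 108 and 109 FPKM in control and 119, 111 and 115 FPKM in lentivirus libraries (log2 change 0.089, SE 0.040, limma adjusted p = 0.252). The row carrying the CDK1 accession was at 41.1, 42.0 and 40.1 FPKM in control and 44.0, 43.5 and 44.5 FPKM in lentivirus libraries (log2 change 0.097, SE 0.038, limma adjusted p = 0.205), and with the chromosome median subtracted its change was 0.020 log2 (limma adjusted p = 0.811). In both, the groups did not overlap and the mean differed by 6.46% and 7.08%. CCNB2 alone passed among the 4 rows of this role.

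Among the mitotic kinases and checkpoint genes, TTK rose and BUB1B fell. TTK, the kinase MPS1 that starts spindle checkpoint signalling at kinetochores (ENSP00000358813_1, chromosome 13, 4740196 to 4779232), was at 30.8, 32.9 and 31.3 FPKM in control and 36.4, 38.5 and 39.1 FPKM in lentivirus libraries. All lentivirus libraries were above all control libraries, with means of 31.7 ± 1.10 and 38.0 ± 1.44 FPKM (SD, n = 3), 1.20-fold higher (log2 change 0.26, SE 0.050, limma adjusted p = 0.0476). BUB1B, which encodes the checkpoint protein BUBR1 (ENSP00000287598_1, chromosome 26, 42795640 to 42855093), was at 53.0, 59.3 and 56.8 FPKM in control and 42.7, 42.8 and 46.2 FPKM in lentivirus libraries. The groups were separated by more than 6 FPKM, with means of 56.4 ± 3.18 and 43.9 ± 2.02 FPKM, 1.29-fold lower (log2 change -0.35, SE 0.061, limma adjusted p = 0.0369).

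BUB1, the checkpoint kinase related to BUBR1 (ENSP00000302530_1, chromosome 14, 13647462 to 13703342), lay with TTK rather than with BUB1B. It was at 65.2, 66.1 and 63.0 FPKM in control and 70.9, 72.2 and 72.4 FPKM in lentivirus libraries (log2 change 0.15, SE 0.037, limma adjusted p = 0.0802). The other 2 tested genes of the role had overlapping groups. PLK1, a kinase of mitotic entry and spindle assembly, ranged from 108 to 117 FPKM in control and from 104 to 115 FPKM in lentivirus libraries (interval -0.18 to 0.11 log2). BIRC5, which encodes survivin, a partner of Aurora B, ranged from 165 to 177 FPKM and from 170 to 182 FPKM (interval -0.061 to 0.18 log2).

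The calls of CCNB2, BUB1B and TTK were near the threshold. Each was lost without any 1 of the 6 libraries, with limma adjusted p of 0.0678 to 0.141 for CCNB2, 0.0739 to 0.124 for BUB1B and 0.0838 to 0.150 for TTK; the same fits called 48 to 108 features in all. The calls of CCNB2 and TTK were lost with each of 3 other scalings (median ratio, quantile and TPM), and that of BUB1B was lost on the TPM scale (limma adjusted p = 0.0646), with log2 changes of -0.29 to -0.31 for CCNB2, -0.33 to -0.35 for BUB1B and 0.26 to 0.27 for TTK. With no filter on low values all 3 calls were lost (limma adjusted p 0.0596 to 0.0778).

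CCNB2 and BUB1B lie on the same chromosome, and their neighbours were lower too. The median change of the 690 tested features of chromosome 26 was -0.18 log2. Of the 20 tested loci nearest to CCNB2, 19 were lower, with a median of -0.26 log2, and of those nearest to BUB1B 19 were lower, with a median of -0.22 log2. With the chromosome median subtracted in each library the change was -0.14 log2 for CCNB2 (limma adjusted p = 0.268) and -0.17 log2 for BUB1B (limma adjusted p = 0.192), and neither passed the test. In the same fit TTK was no longer called (0.19 log2, limma adjusted p = 0.0812), whereas BUB1 on chromosome 14, whose median was -0.10 log2, was called (0.27 log2, limma adjusted p = 0.0304). For RRM2, 18 of the 20 nearest loci were lower (median -0.21 log2), and for TYMS the neighbours had a median of 0.20 log2. The 20 loci around TTK had a median of 0.0078 log2 and those around KIF11 one of 0.0072 log2. Around BUB1 the median was -0.018 log2, with 12 of the 20 lower, so the fall of its chromosome was not seen to that extent near the gene. The subtraction used whole chromosomes, whose medians can differ from those of the nearest loci (0.0095 log2 for the chromosome of TYMS). The part of the nearer neighbourhood in these results was not tested.

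**Figure D4:**
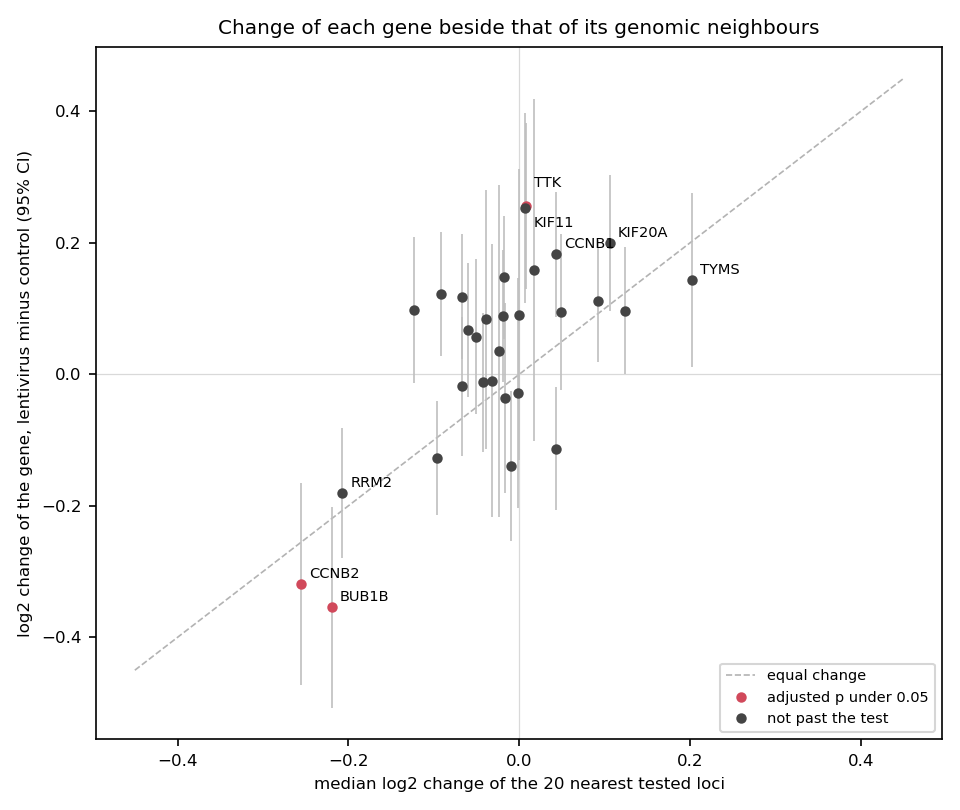
Log2 change of each tested gene other than CCND1 (vertical, with 95% intervals) against the median log2 change of the 20 nearest tested loci (horizontal); the dashed line marks equal change and red points are past the test. CCNB2, BUB1B and RRM2 sit at the lower left with neighbours below -0.2, whereas TTK and KIF11 sit at about 0.25 above neighbours near 0.

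Over the 30 tested genes other than CCND1, Pearson's r between a gene's change and that of its neighbours was 0.67. Without CCNB2, BUB1B, RRM2 and TYMS, the 4 members whose neighbours lay beyond 0.2 log2 either way, it was 0.28 over 26 genes. Leaving out the genes with the most extreme neighbours narrows the range, which by itself can lower r. The points share the same 6 libraries, genes that lie close together may share neighbours, and r is given as a description.

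None of the 5 genes of spindle motors and kinetochores passed the test, and 3 had groups that did not overlap, beside 31.6% of all tested features and 47.8% of the ENSP features at 10 FPKM or more. KIF11, the motor that pushes spindle poles apart (ENSP00000260731_1, chromosome 9, 85858674 to 85921595), was at 46.3, 49.7 and 44.2 FPKM in control and 54.4, 55.3 and 57.9 FPKM in lentivirus libraries, 1.19-fold higher (log2 change 0.25, SE 0.058, limma adjusted p = 0.0645). KIF20A, a motor of cytokinesis (ENSP00000378356_1, chromosome 23, 40849718 to 40857431), was at 51.6, 52.6 and 53.7 FPKM in control and 58.6, 61.7 and 61.5 FPKM in lentivirus libraries, 1.15-fold higher (log2 change 0.20, SE 0.041, limma adjusted p = 0.0526). With the chromosome median subtracted its change was 0.12 log2 (limma adjusted p = 0.157). JK122188.1, a feature that overlaps the end of the KIF20A row and runs past it, was likewise higher without overlap, by 0.21 log2 (SE 0.075, limma adjusted p = 0.163). TPX2, which activates Aurora A on the spindle, lay lower, at 94.5, 97.5 and 94.1 FPKM in control and 89.7, 85.9 and 88.7 FPKM in lentivirus libraries (log2 change -0.11, SE 0.037, limma adjusted p = 0.143).

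The kinetochore proteins CENPE and CENPF and the proliferation marker MKI67 varied as much within groups as between them. MKI67, which encodes Ki-67, was at 18.4, 20.4 and 17.2 FPKM in control and 19.1, 20.2 and 23.7 FPKM in lentivirus libraries (interval -0.10 to 0.42 log2). CENPE was at 11.3, 12.9 and 10.9 FPKM in control and 11.7, 12.2 and 13.6 FPKM in lentivirus libraries, which is the same order of the 6 libraries as in MKI67. CENPF was at 19.5, 21.6 and 17.6 FPKM and at 18.6, 19.5 and 22.2 FPKM, with an interval of -0.22 to 0.29 log2. In all 3 genes control replicate 3 was the lowest of the 6 libraries and lentivirus replicate 3 the highest. This held in 7 of the 31 tested members (also TOP2A, BUB1, KIF11 and the CDK1 row). The likeness was seen after the values were known, and its share over all tested features was not counted.

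TOP2A, the topoisomerase that untangles sister chromatids, was at 126, 133 and 122 FPKM in control and 132, 136 and 139 FPKM in lentivirus libraries; the groups overlapped (interval -0.024 to 0.21 log2). The row carrying the accession of UBE2C, a ubiquitin-conjugating enzyme of the anaphase-promoting complex, ranged from 162 to 173 FPKM in control and from 160 to 168 FPKM in lentivirus libraries, with an interval of -0.12 to 0.088 log2. For both, a change of the size seen for CCND1 lies outside the interval.

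The fit over loci, which tests 16073 rows in place of 28434, called more members. In it the loci of 7 members rose (MCM7, RRM1, CCNB1, BUB1, TTK, KIF11 and KIF20A) and those of 4 fell (CCND1, RRM2, CCNB2 and BUB1B). The rise at MCM7 came from the other features of its locus, since its own row stood under 0.001 FPKM. CCNB1, BUB1, TTK, KIF11 and CCND1 overlap no other feature, so their values are the same in both fits. These 11 of 32 (34.4%) stand beside 19.5% of all 16073 tested loci, 8.88% higher and 10.6% lower, and 25.4% of the loci with an ENSP feature and at least 10 FPKM. Some loci reach well past the member, such as that of MCM2, whose 12 features span chromosome 22 from 53371007 to 53467254. CCND1 (-1.25 log2, limma adjusted p = 4.18e-04) had the largest absolute change of the 11. In cells taken as bulk, a change in the share of cells in a cell cycle phase and a change in RNA per cell cannot be told apart.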

How the data were processed

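The authors deposited 1 table of FPKM values, 1 column per library and 1 row per feature, with positions; the tools named per the submitters' processing notes are Cuffdiff, Cufflinks 2.1.1, CASAVA, Bowtie2 2.1.0.0 and TopHat2 2.0.10, named without roles. Scaling steps and the build were not given in the sources used here. Columns summed to 2094230 to 2206925 FPKM. Starts were raised by 1, because end minus start was a multiple of 3 in 72.1% of 1743 ENSP features spanning under 900 positions.

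Features averaging 1 FPKM or more were fitted on log2(FPKM + 1) with limma 3.58.1 (lmFit, eBayes with a trend, R 4.3.3), group as the only term; two-sided p-values were Benjamini-Hochberg adjusted over all tested features and called under 0.05. The fit was also run on simulated data with independent noise in each feature. Real features overlap and share reads, so that run does not show how reliable the calls are. Overlapping features were summed to 20566 loci as an alternative, beside other pseudocounts, filters and scalings, subtraction of chromosome medians, the replicate number as a block and leaving out each library. Every called member, every member whose groups did not overlap, the 5 uncalled members with the largest change and the MCM subunits are named with values. Members, roles and lists were chosen with earlier results of these data known. A list of other pathway genes was not analysed here, as no table pairs its symbols with feature IDs.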

Additional observations from a re-analysis of the deposited data

How the results depend on the processing

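The direction of 25 of 31 tested members was the same under all 16 alternatives; the other 6 had changes of 0.036 log2 or smaller in size as reported. On the TPM scale MCM2, MCM5 and UBE2C turned to 0.0097, 0.012 and 0.0036 log2, all below the median of all features on that scale, 0.016 log2 (-0.00097 as reported). With chromosome medians subtracted MCM2, MCM5, GINS2, PLK1 and UBE2C turned to 0.024, 0.032, 0.010, 0.0023 and 0.063 log2, and MCM5 summed to its locus to 0.019 log2. Without 1 library MCM2 ranged from -0.041 to 0.0053, MCM5 from -0.074 to 0.029, GINS2 from -0.081 to 0.0020, PLK1 from -0.075 to 0.0027, CENPF from -0.034 to 0.10 and UBE2C from -0.035 to 0.0093 log2.

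The 1 member called higher became 2 at a filter of 5 FPKM, 7 over loci and 0 under median ratio, TPM and quantile scaling and without any 1 library. The 3 called lower became 1 with no filter, on the TPM scale, with chromosome medians subtracted and without any 1 library; that 1 was CCND1. All feature calls, 1842, became 1197 with no filter, 1138 (501 higher, 637 lower) with chromosome medians subtracted, 3134 over loci and 48 to 108 without 1 library. The median change of the members was 0.10 log2 on the TPM scale and 0.042 to 0.094 without 1 library. The cause was not tested. Over all calls, 821 higher and 1021 lower features became 869 and 870 on the TPM scale.

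A replicate block (the replicate number as a term) left limma with 0 called features, 0 members higher and 0 lower, with 6084 features at an unadjusted p under 0.05; CCND1 then had a limma adjusted p of 0.121. Same-numbered libraries deviated together with r of 0.13, -0.028 and 0.0028 over features, so the numbers are not shown to pair libraries, and not every library correlated best with its own number. Depth is unknown.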
